A study of Mus musculus with 10 samples.

Results

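The genes described here encode CTCF, the proteins that build, load and release cohesin, and the germline relative of CTCF. They were chosen by name and are Ctcf, Ctcfl, Rad21, Smc3, Stag1, Nipbl, Mau2, Wapl, Pds5a and Pds5b, which makes 10 of the 20807 autosomal protein-coding genes annotated in GENCODE M21 on mm10. The data were peak lists from F123 cells, a mouse embryonic stem cell (mESC) line from an F1 cross between Mus musculus castaneus and S129/SvJae, grown with LIF on irradiated CF1 mouse embryonic fibroblasts as feeders and passaged once without feeders before harvest. H3K4me3 ChIP-seq and ATAC-seq were each done on 2 biological replicates of this line, for which the labels name no treatment, and each assay was deposited as 1 list that stands for both of its replicates. The PLAC-seq and input samples of the same study were not analysed here. No value below therefore has a spread between replicates, the lists carry no read counts from which depth could be given, and no difference between genes could be tested.

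CTCF is a zinc-finger protein that binds DNA and marks the borders of chromatin domains. Cohesin is a ring of Smc1a, Smc3 and Rad21 to which a Stag protein binds, and it extrudes chromatin loops until it meets CTCF or is taken off again. Nipbl and Mau2 form the complex that loads the ring, while Wapl, with Pds5a or Pds5b, opens it and releases it from DNA. Ctcfl, also known as BORIS, shares the zinc fingers of CTCF and is normally made in male germ cells. H3K4me3, trimethylation of histone H3 at lysine 4, is found around the starts of active genes, and ATAC-seq peaks mark chromatin open to the Tn5 transposase.

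The starts of all 10 genes lay inside an H3K4me3 ChIP-seq peak and inside an ATAC-seq peak. The same held for 62.4% of all autosomal protein-coding genes in H3K4me3 and for 63.6% in ATAC-seq. Of all autosomal protein-coding genes, 67.7% had an H3K4me3 peak within 2 kb of the start (95% Wilson interval 67.03% to 68.3%) and 75.9% had an ATAC-seq peak there (75.29% to 76.45%). These intervals cover counting error only. Among genes with such peaks, the widest one covered the start itself in 90.2% for H3K4me3 and in 78.1% for ATAC-seq. The promoter peak of a gene is taken below as its widest H3K4me3 peak within 2 kb, and its strength as the deposited fold enrichment over background. The promoter peaks of the 10 genes ranged in width from 582 to 5943 bp (median 2636 bp), beside a median of 2170 bp over the 14079 coding genes with a peak. Their fold enrichment ran from 2.43 to 57.7 with a median of 45.1, beside a median of 30.8 over the coding genes.

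Ordered by width, the promoter peaks were those of Nipbl, Ctcf, Pds5a, Wapl, Mau2, Rad21, Smc3, Pds5b, Stag1 and Ctcfl. With 1 list per assay, no neighbours in this order could be shown to differ. In fold enrichment the genes fell into a close group and a pair far below it. Of the 10, 8 lay between 43.4 and 57.7, above the upper quartile of coding genes at 40.3, whereas Stag1 lay at 6.30 and Ctcfl at 2.43. Width did not separate them in the same way, since 6 of 10 were wider than the coding median and 5 of 10 were wider than the upper quartile of 2880 bp. The widest promoter ATAC-seq peak was over 1 kb in 8 of 10 genes, again all but Stag1 and Ctcfl, beside 35.7% of coding genes with an ATAC-seq peak there. ATAC-seq peaks covered 31.6% (Ctcfl) to 53.4% (Rad21) of the length of the H3K4me3 peaks, beside a median of 45.4% over coding genes. The map of promoter peaks shows that the H3K4me3 peaks reached further downstream than upstream in 9 of 10 genes, as they did in 82.2% of coding genes with a peak, and that Mau2 was the exception.

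**Figure D1:**
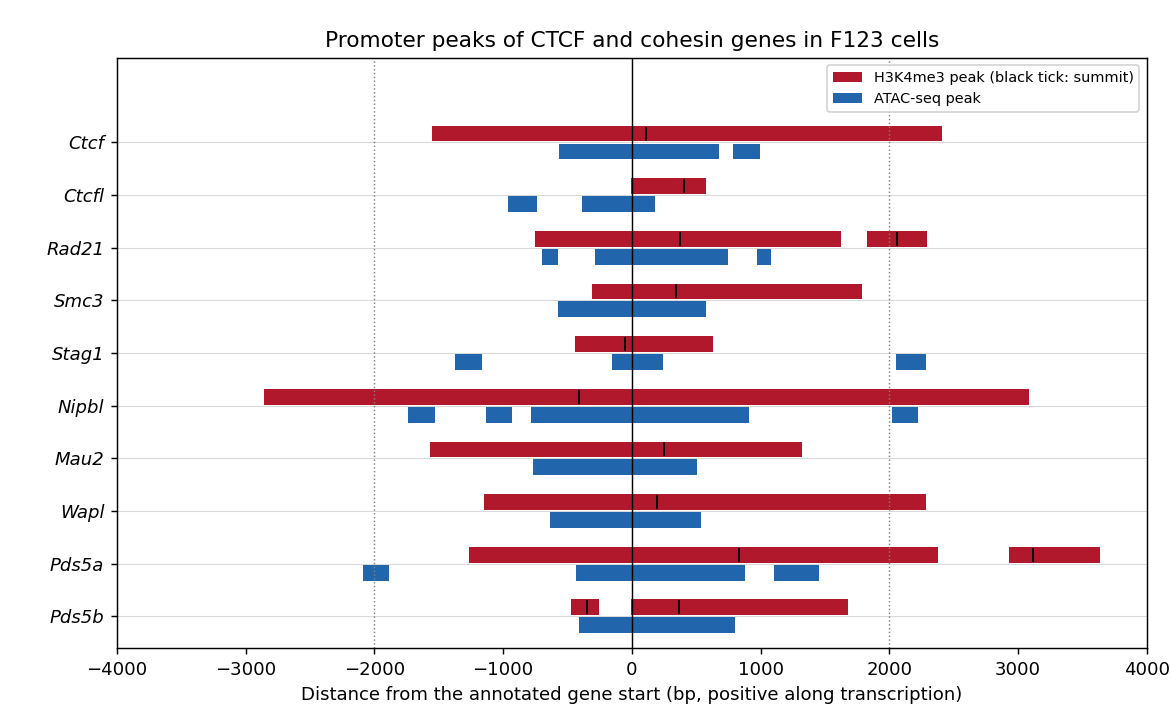
H3K4me3 peaks (red, summit as a black tick) and ATAC-seq peaks (blue) within 4 kb of the annotated start of each gene, with distance in bp on the x axis and dotted lines at 2 kb either side. Each start lies in a red and a blue bar. Of the red bars that cover a start, that of Nipbl is the longest at 5943 bp and that of Ctcfl the shortest at 582 bp.

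Ctcf and Ctcfl stood far apart in the promoter measures. Ctcf lies on the plus strand of chromosome 8 (chr8:105636568-105682922), and its promoter peak, chr8:105635012-105638976, spanned 3965 bp at a fold enrichment of 45.3 (−log10 q 760.4). That peak was wider than 91.8% of the coding promoter peaks (rank 1147 of 14079) and stronger than 84.7% of them. It ran from 1556 bp upstream to 2408 bp downstream of the start and held 4 annotated Ctcf transcript starts. It also held the starts of Agrp, which encodes a feeding peptide of the hypothalamus, and of the lincRNA Gm5914, both on the other strand at 825 and 917 bp downstream, so a part of its width cannot be assigned to Ctcf alone. An ATAC-seq peak of 1242 bp covered the Ctcf start, and another of 211 bp lay over the starts of Agrp and Gm5914.

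Ctcfl lies on the minus strand of chromosome 2 (chr2:173093609-173119525), and its promoter peak, chr2:173118947-173119528, spanned 582 bp at a fold enrichment of 2.43 (−log10 q 2.87). Its peak was wider than 2.57% of coding promoter peaks (rank 13714 of 14079), and only 13 coding genes with a promoter peak had a lower fold enrichment. In the whole list of 33487 peaks, 375 had a lower −log10 q. The peak began 3 bp upstream of the start and ended 578 bp downstream. With peaks kept only at a −log10 q of at least 5, it was lost, and 9 of 10 genes had a promoter peak beside 67.4% of coding genes. Among promoters, the Ctcfl start ranked less low in ATAC-seq than in H3K4me3. The ATAC-seq peak over the start was 568 bp, wider than 18.9% of the widest promoter ATAC-seq peaks of coding genes, and a further peak of 232 bp began 965 bp upstream. The nearest other H3K4me3 peak was 51702 bp from the Ctcfl start, and the nearest other coding start, that of Pck1, was 33523 bp away.

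Side by side, the promoter peak of Ctcf was 6.81 times as wide as that of Ctcfl and had 18.7 times its fold enrichment, while its ATAC-seq peak was 2.19 times as wide. Feeder cells and other cell types cannot be told apart from mESC in a peak list. Of 8 markers of mESC, 7 had a promoter H3K4me3 peak, all but Esrrb, and all 8 had an ATAC-seq peak. Over coding genes these shares were 67.7% and 75.9%. Esrrb had 12 H3K4me3 and 41 ATAC-seq peaks further inside the gene, and whether these lay on other Esrrb starts was not examined. Of 8 markers of feeder fibroblasts, 4 had a promoter H3K4me3 peak (Col1a1, Col1a2, Thy1 and Dcn, but not Col3a1, Lum, Postn or Fap) and 6 had an ATAC-seq peak, shares below and near those of all coding genes. Of 8 germ cell and testis genes, 4 had a promoter H3K4me3 peak (Ddx4, Dazl, Sycp1 and Sycp3), at fold enrichments of 5.88 to 13.8, and all 4 values were above that of Ctcfl, while Tex101, Prm1, Acrv1 and Tnp1 had no H3K4me3 peak there. An ATAC-seq peak was found at 5 of these 8, the same 4 and Tex101. The part that other cells had in the Ctcfl peak was not tested.

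The coding genes most like Ctcf in 3 measures (width and fold enrichment of the H3K4me3 peak, and summed ATAC-seq width at the promoter) were Agrp, which shares its peak, and Arid4b and Ggps1, which share a peak of 4048 bp with a fold enrichment of 45.7. Likeness was the sum of the absolute differences in percentile over 13973 genes with both kinds of peak, and it was 2.67 for Arid4b and for Ggps1. The genes most like Ctcfl were Zfp831, Pou2f3 and Piwil2, with sums of 1.49, 1.62 and 2.05. Zfp831 had a promoter peak of 538 bp with a fold enrichment of 3.19, and Pou2f3 one of 630 bp with 3.19. Piwil2, a Piwi protein of the male germline and the least alike of the 3, had a promoter peak of 387 bp with a fold enrichment of 2.63.

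**Figure D2:**
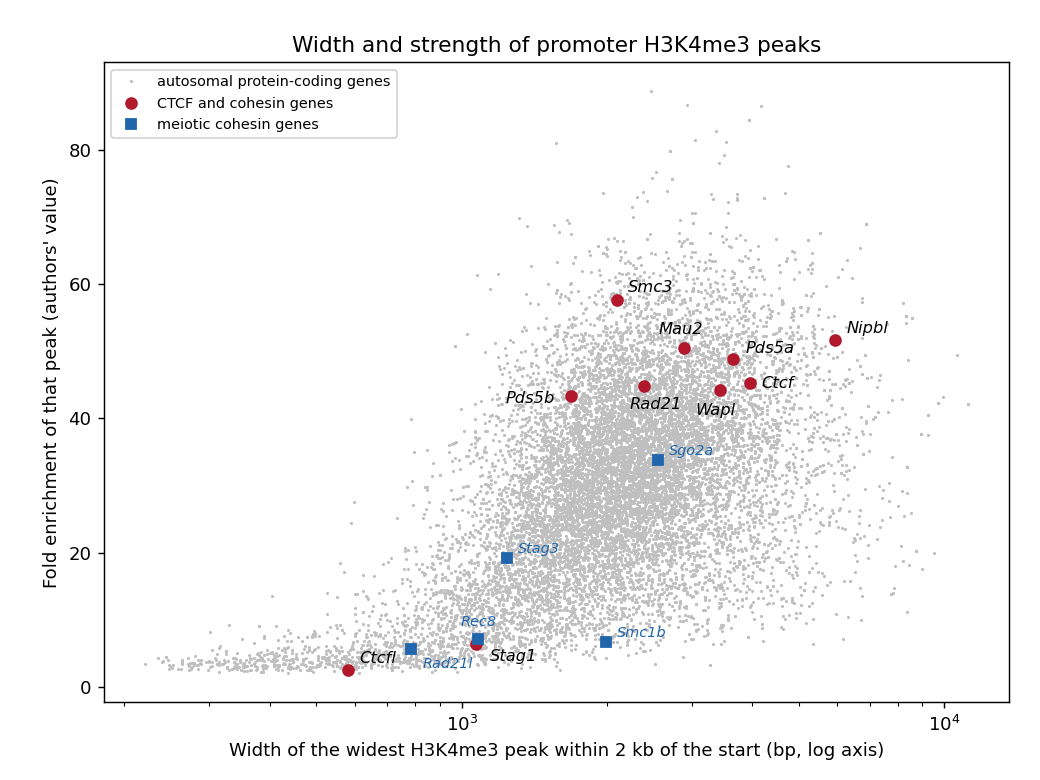
Width in bp (log axis) against the authors' fold enrichment of the widest H3K4me3 peak within 2 kb of the start, for 14079 autosomal protein-coding genes (grey), the CTCF and cohesin genes (red circles) and 5 meiotic cohesin genes (blue squares). Points have no error bars, since 1 list stands for both replicates, and Ctcfl and Stag1 lie at the lower left, far from the other 8 red points, which all lie above 43.

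The promoter sequences were read from a RefSeq table on GRCm38.p6, the same build as mm10, which held 7 of the 10 genes, those other than Ctcfl, Rad21 and Nipbl. Its windows span 250 bases before to 50 bases after a RefSeq start, and 31223 of them lie on autosomes. Mau2 had 2 windows, and the one at its GENCODE start was used, while the other, 13221 bp inside the gene, had a CpG ratio of 0.0739 and a GC content of 42.7%. At the remaining 7 windows, 1 for each gene, CpG was dense. The ratio of observed to expected CpG was 0.908 (Mau2) to 1.16 (Ctcf), beside a median of 0.39 over all windows. GC content was 56.0% (Mau2) to 80.3% (Pds5a), beside 53.0%. The 31223 windows were not cut to 1 for each gene and include the internal one of Mau2, so medians and ranks over them are for an unlike set. The Ctcf window stood above 99.1% of all windows in that CpG ratio. Its 250 bases before the RefSeq start, which lies 30 bp upstream of the GENCODE start and is inside both promoter peaks, are shown with each of the 40 CpG in capitals, to show how densely they lie (chr8:105636288-105636537, plus strand).
Ctcf: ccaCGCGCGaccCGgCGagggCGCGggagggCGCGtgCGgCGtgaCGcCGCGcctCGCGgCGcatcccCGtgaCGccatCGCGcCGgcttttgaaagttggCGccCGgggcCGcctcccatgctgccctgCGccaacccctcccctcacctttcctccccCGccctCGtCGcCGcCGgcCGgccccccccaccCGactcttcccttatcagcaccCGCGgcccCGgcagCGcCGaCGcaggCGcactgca

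Short motifs, chosen after the sequences had been seen, were looked for on both strands of each window. The 9-letter YY1-type motif AANATGGCG was found in 4 of 7 windows, those of Ctcf, Smc3, Stag1 and Pds5b, beside 2.36% of all 31223 windows. The motif ends in a CpG. All 7 windows had a CpG ratio of 0.908 or more, while 63.5% of all windows had one under 0.6. The share over all windows, here and for the motifs below, is thus not matched for base composition. Nor was it taken over 1 window for each gene. A match is a description of letters and not evidence of binding. The 29 bases around each match are shown on the strand that reads the motif, with the motif in capitals, because the 4 matches were the same 9 letters. They lie at chr8:105636537-105636565 (minus strand, Ctcf), chr19:53600385-53600413 (minus strand, Smc3), chr9:100643236-100643264 (plus strand, Stag1) and chr5:150673779-150673807 (minus strand, Pds5b).
Ctcf: gctcggacacAAAATGGCGgcggcgcggt
Smc3: gtggccaaacAAAATGGCGgcggccgcgg
Stag1: agaagctctaAAAATGGCGggcggcaacc
Pds5b: tctccgcttcAAAATGGCGccaagagcag

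In Ctcf and Smc3 the match lay at the RefSeq start, with its leftmost base in the direction of the gene at position 9 and at position −1 from that start, in Pds5b it lay at −38 and in Stag1 at −202. Of the other motifs, the CTCF core AGNGGGCGC was found in 1 of 7 windows (Pds5b) beside 2.95% of all windows, GGGCGGGG (SP factors) in 2 of 7 beside 17.8%, CCAAT in 3 of 7 beside 37.2%, GGCGGGAA (E2F) in 1 of 7 beside 2.17% and TGACG (CREB family) in 4 of 7 beside 21%. TATAAA, the ETS letters CCGGAAG and the NRF1 letters GCGCATGCG were in none of the 7, beside 13.6%, 9.03% and 1.74% of all windows. The SP, E2F and CTCF letters share runs of G and C, but their matches lay in different windows. Those of SP were in Ctcf and Mau2, that of E2F in Pds5a and that of CTCF in Pds5b.

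The ring subunits among the 10 genes were Rad21, the kleisin that closes the ring, Smc3, 1 of its ATPase arms, and Stag1, a subunit that binds the kleisin. Rad21 (chr15:51962240-51991747, minus strand) had a promoter peak of 2382 bp (chr15:51990120-51992501) with a fold enrichment of 44.9, wider than 58.8% and stronger than 83.9% of coding promoter peaks. A further H3K4me3 peak of 465 bp, with a fold enrichment of 3.27, lay 200 bp downstream of it in an intron. Its ATAC-seq peaks within 2 kb were 1032, 125 and 114 bp wide, and the widest covered 2 annotated transcript starts of the gene.

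Smc3 (chr19:53600398-53645833, plus strand) had the strongest promoter peak of the 10, at a fold enrichment of 57.7 (−log10 q 1081), at chr19:53600087-53602188. Its fold enrichment was above that of 97.3% of coding promoter peaks (rank 383), but its width of 2102 bp was above only 46.9% of them. The peak reached 311 bp upstream and 1790 bp downstream, so 85.2% of it lay downstream of the start. The ATAC-seq peak of 1150 bp was centred on the start, from 576 bp upstream to 573 bp downstream, and was the only one within 2 kb.

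Stag1 (chr9:100597798-100959375, plus strand) is the longest of the 10 genes at 361578 bp, and its annotated start was not where its strongest peaks lay. At that start, which belongs to 1 transcript, the H3K4me3 peak was 1070 bp wide at a fold enrichment of 6.30, wider than 8.91% and stronger than 5.28% of coding promoter peaks. The ATAC-seq peak there was 398 bp. Inside the gene, a pair of H3K4me3 peaks separated by 53 bp covered 43217 to 47861 bp after the start, a span of 4645 bp. The first, chr9:100641015-100643449, was 2435 bp wide at a fold enrichment of 18.7 and held the starts of 2 transcripts. The second, chr9:100643503-100645659, was 2157 bp wide at a fold enrichment of 34.2 and held the starts of 8 transcripts. The RefSeq start of Stag1 lies in the first, 45650 bp after the GENCODE start. An ATAC-seq peak of 1133 bp ran across the gap between them, and another of 541 bp lay within the second. The 2 widths add up to 4592 bp, more than the summed promoter widths of 94.6% of coding genes. When the starts of all annotated transcripts were used, the widest Stag1 peak was 2435 bp, wider than 60.0% of coding promoter peaks. The low rank of Stag1 therefore depends on which of its starts is taken. The 250 bases before the RefSeq start, inside the first internal peak and the ATAC-seq peak, are shown with the YY1-type match and a CCAAT box, which reads on the minus strand, in capitals (chr9:100643198-100643447, plus strand).
Stag1: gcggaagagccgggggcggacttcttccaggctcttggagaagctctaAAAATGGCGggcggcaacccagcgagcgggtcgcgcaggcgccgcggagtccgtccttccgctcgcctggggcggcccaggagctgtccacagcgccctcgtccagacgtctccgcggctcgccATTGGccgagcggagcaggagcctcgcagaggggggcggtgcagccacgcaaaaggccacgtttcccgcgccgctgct

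Of the loader genes, Nipbl had the widest promoter peak of the 10, and that of Mau2 was narrower than those of Ctcf, Pds5a and Wapl too. Nipbl (chr15:8290617-8444463, minus strand), the subunit that stimulates the ATPase of cohesin, had an H3K4me3 peak of 5943 bp at chr15:8441375-8447317, which ranked 178 of 14079 coding genes and 174 of all 33487 peaks in width. It was wider than 98.7% and, with a fold enrichment of 51.7, stronger than 93.2% of coding promoter peaks. The peak ran 2854 bp upstream and 3088 bp downstream of the gene start. It held 1 annotated Nipbl transcript start, and no start of another gene lay in it. The summit of the peak lay 414 bp upstream of the start, whereas the summit was downstream in 8 of the 10 genes and in 84.2% of coding genes. The widest promoter ATAC-seq peak of Nipbl, at 1689 bp, was the widest of the 10 and wider than 97.2% of those of coding genes.

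Mau2 (chr8:70016123-70042734, minus strand), the partner that binds the N terminus of Nipbl, had a promoter peak of 2890 bp at chr8:70041415-70044304, with a fold enrichment of 50.5. It was wider than 75.1% and stronger than 92.2% of coding promoter peaks, and the start of Sugp1, a splicing factor gene on the other strand, lay 79 bp upstream in the same peak. The ATAC-seq peak of 1277 bp covered both starts. The peak thus stands for a promoter shared by a gene pair, and its width and strength cannot be divided between them. The 78 bases between the starts of Mau2 and Sugp1 are shown on the Mau2 strand with the SP letters, which read on the other strand, in capitals (chr8:70042735-70042812, minus strand).
Mau2: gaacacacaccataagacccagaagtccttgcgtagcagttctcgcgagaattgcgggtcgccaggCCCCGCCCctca

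The release genes were Wapl and the Pds5 pair. Wapl (chr14:34673928-34747983, plus strand) had a promoter peak of 3437 bp (chr14:34672777-34676213) with a fold enrichment of 44.2, wider than 86.0% and stronger than 82.7% of coding promoter peaks. The start of a lncRNA on the other strand, 5830448L01Rik, lay 165 bp upstream within that peak. The ATAC-seq peak was 1175 bp wide and covered both starts. The 164 bases before the Wapl start, which end at that of the lncRNA, hold 2 CCAAT boxes, 1 on each strand, shown in capitals (chr14:34673764-34673927, plus strand).
Wapl: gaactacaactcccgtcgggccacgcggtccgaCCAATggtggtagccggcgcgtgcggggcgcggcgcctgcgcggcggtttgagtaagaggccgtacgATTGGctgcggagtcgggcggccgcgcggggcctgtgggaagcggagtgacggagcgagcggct

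Pds5a and Pds5b, paralogues that bind Wapl and cohesin, had promoter peaks of unequal width and near strength. The Pds5a peak (chr5:65695898-65699539, gene on the minus strand at chr5:65605721-65698273) was 3642 bp wide at a fold enrichment of 48.9, wider than 88.4% of coding promoter peaks. The Pds5b peak (chr5:150673732-150675414, gene on the plus strand at chr5:150673739-150810690) was 1683 bp wide at a fold enrichment of 43.4, wider than 28.4% of them. The Pds5b peak began 7 bp upstream of the start, and a further H3K4me3 peak of 221 bp with a fold enrichment of 3.34 lay 245 bp beyond it, so that 99.6% of the main peak was downstream. A single ATAC-seq peak of 1215 bp overlapped both Pds5b peaks and the gap. The Pds5a start had an ATAC-seq peak of 1313 bp, close in width to that of Pds5b. Pds5b and Rad21 were the 2 of 10 genes with more than 1 H3K4me3 peak within 2 kb, beside 12.3% of coding genes with a promoter peak.

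Along the gene bodies, taken as the gene more than 2 kb after the start, H3K4me3 peaks were found in 3 of 10 genes, with 4 peaks in all, a share near the 38.4% found over the 12556 coding genes with a body of at least 10 kb. Besides the pair in Stag1, Wapl had a peak of 749 bp with a fold enrichment of 4.99, 20353 to 21101 bp after the start, over the start of another Wapl transcript and beside an ATAC-seq peak of 639 bp that covered that start too. Pds5a had a peak of 701 bp with a fold enrichment of 3.02 that lay 558 bp downstream of its promoter peak and held no annotated start. Of these 4 body peaks, 3 lay on an annotated start of the same gene, namely the adjacent pair in Stag1 and the Wapl peak. The matching share over the body peaks of all coding genes was not computed.

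ATAC-seq peaks were found in the bodies of all 10 genes, beside 87.3% of coding genes with a body of that length. There were 57, of which 49 were intronic and 8 touched an exon, a split that was not computed over all coding genes. Their median width was 208 bp, with a range of 104 to 1510 bp. Over all ATAC-seq peaks the median was 261 bp, with quartiles of 176 and 460 bp. Stag1 had 14, Pds5b 13, Nipbl 7, Smc3 and Pds5a 6 each, Rad21 and Wapl 3 each, Ctcf and Ctcfl 2 each and Mau2 1. Per 10 kb of body, the values ran from 0.389 (Stag1) to 1.38 (Smc3), beside a median of 0.809 and quartiles of 0.395 and 1.45 over coding genes. Stag1, the longest gene, had the most peaks and the fewest per length, but length did not order the others, since Mau2 (0.406), Wapl (0.416) and Ctcf (0.451) lay below Nipbl (0.461), and the long Pds5b lay at 0.963.

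The widest body peak, 1510 bp in Wapl at 34100 to 35609 bp after the start, covered the start of a further Wapl transcript and overlapped no H3K4me3 peak. Of the 57 peaks, 3 covered an annotated start of the same gene and 4 overlapped an H3K4me3 peak. The matching shares over all coding genes were not computed. An ATAC-seq body peak lay within 3 kb of the annotated gene end in 5 of 10 genes, Ctcf, Smc3, Stag1, Nipbl and Pds5a, beside 30.1% of coding genes with a body of at least 10 kb. These peaks were 148 bp wide in Ctcf, 179 bp in Smc3, 192 bp in Stag1, 149 bp in Nipbl and 149 bp in Pds5a. The median over all ATAC-seq peaks was 261 bp.

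**Figure D3:**
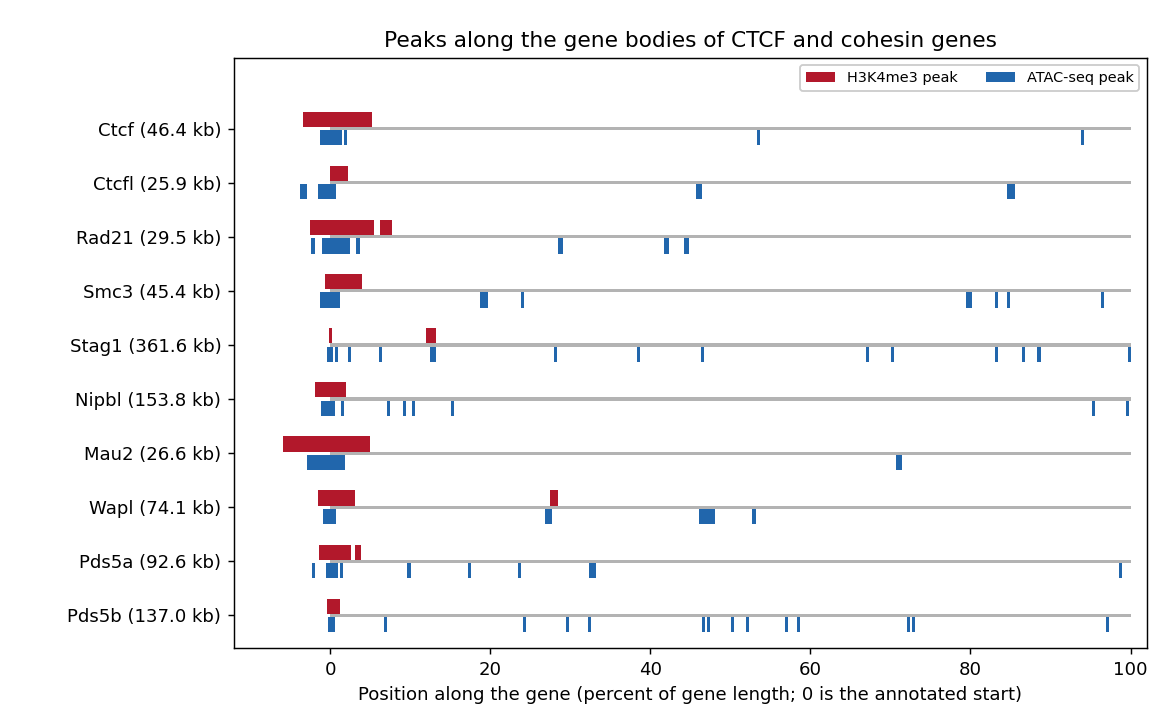
H3K4me3 peaks (red) and ATAC-seq peaks (blue) along each gene, with position as a percent of gene length on the x axis, 0 at the annotated start and the gene length in kb beside each name. Peaks narrower than 0.4% of the gene are drawn at that width, and the red bars more than 10% of the gene length from the start are the internal pair of Stag1 and the single internal peak of Wapl, while the separate bars nearer the start belong to Rad21 and Pds5a.

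The other genes of the pathway were taken as lists. Beside them stand the autosomal coding genes, of which 67.7% had a promoter H3K4me3 peak and 75.9% a promoter ATAC-seq peak. The coding medians were 2170 bp in width and 30.8 in fold enrichment. All 11 other mitotic cohesin genes, among them the ring subunits Smc1a and Stag2, the acetyltransferases Esco1 and Esco2 and the deacetylase Hdac8, had promoter peaks in both assays. Their H3K4me3 peaks ran from 1188 bp (Hdac8) to 5751 bp (Stag2), both X-linked, with a median width of 2221 bp and a median fold enrichment of 36.7. Stag2 and Stag1 encode alternative subunits of the ring, and the start of Stag2 lay in a peak 5751 bp wide at a fold enrichment of 36.0, next to the 1070 bp and 6.30 at the annotated start of Stag1 and the 2157 bp and 34.2 at its stronger internal peak. The Stag2 peak also held the start of Gm37564, so a part of its width cannot be assigned to Stag2 alone. X-linked genes were not among the genes that percentiles were taken over.

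The 5 meiotic cohesin genes also all had promoter peaks in both assays, beside 67.7% (H3K4me3) and 75.9% (ATAC-seq) of coding genes. All 5 H3K4me3 peaks had a −log10 q of at least 5. But their median width was 1240 bp and their median fold enrichment 7.18, beside coding medians of 2170 bp and 30.8. Sgo2a, a protector of cohesin at centromeres, had the widest, 2555 bp with a fold enrichment of 33.7. The peak of Smc1b, the meiotic counterpart of Smc1a, was 1989 bp with a fold enrichment of 6.63 and also held the start of Ribc2. The peak of Rec8, the meiotic kleisin, was 1083 bp with a fold enrichment of 7.18 and began 45 bp downstream of the start. Stag3 had 2 H3K4me3 peaks within 2 kb of its start, with a summed width of 2028 bp. The wider was 1240 bp with a fold enrichment of 19.1. It lay wholly upstream of the Stag3 start and held the starts of Gm43720 and Gpc2. The peak of Rad21l was 787 bp with a fold enrichment of 5.68 and ended 1402 bp upstream of the start. Of these 5 genes, Smc1b and Sgo2a had their own start inside the widest promoter peak. The fold enrichment of Ctcfl, at 2.43, was below all 5.

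All 10 condensin and SMC5/6 genes had promoter peaks in both assays, beside 67.7% (H3K4me3) and 75.9% (ATAC-seq) of coding genes. Their H3K4me3 peaks ran from 2134 bp (Smc5) to 4423 bp (Smc4), with a median fold enrichment of 43.05, beside 30.8 over coding genes. All 9 other looping or CTCF partner factors had them too, from 1526 bp (Zfp143) to 6745 bp (Patz1), with a median width of 3753 bp and a median fold enrichment of 45.2. Yy1, whose motif was searched above, had a promoter peak of 3873 bp with a fold enrichment of 45.4. For comparison, the 9 genes other than Ctcfl had a median width of 2890 bp and a median fold enrichment of 45.3.

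**Figure D4:**
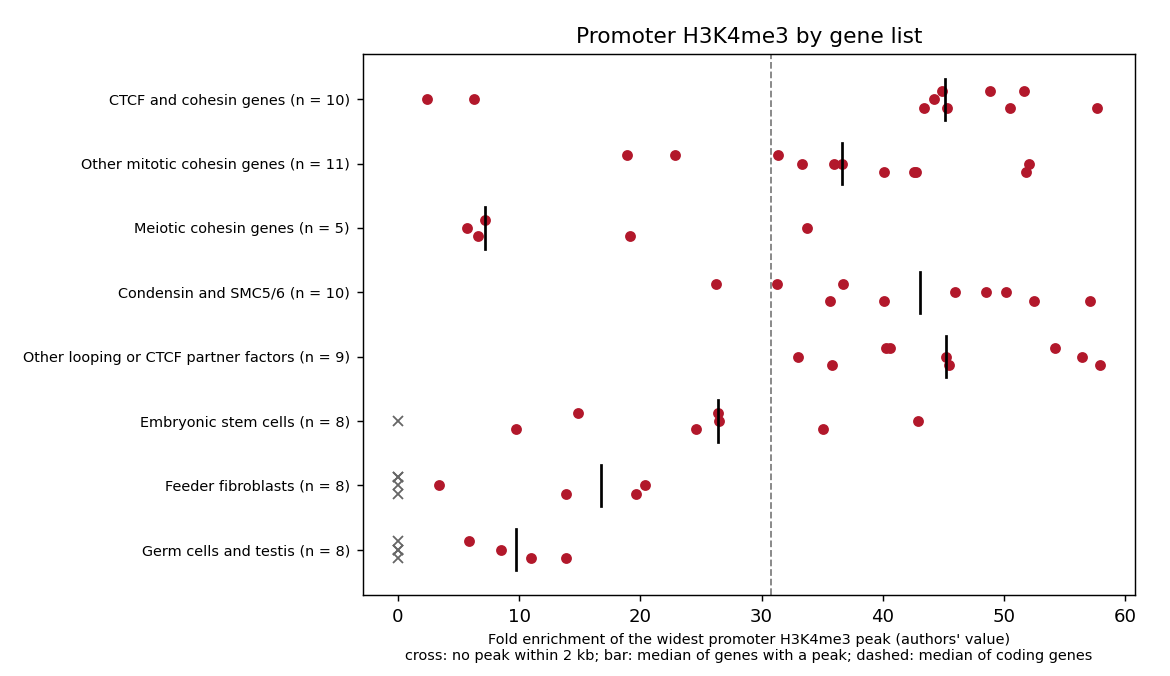
Fold enrichment (x axis, the authors' value) of the widest H3K4me3 peak within 2 kb of the start for each gene of the lists, with the median of genes with a peak as a black bar, genes without a peak as grey crosses at 0 and the median of coding genes, 30.8, as a dashed line. Among the lists in which every gene had a peak, the meiotic genes have the lowest median, 7.18, while Ctcfl at 2.43 and Stag1 at 6.30 lie apart from the other 8 genes of the first row.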

How the data were processed

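For H3K4me3 the authors ran the ENCODE histone ChIP-seq pipeline with its defaults. The deposited list gives mm10 positions, a fold enrichment (ratio over background), the −log10 of each q-value and a summit. Aligner, peak threshold and use of the input for that list are not given in the sources used here. For ATAC-seq, reads were aligned by the authors to mm10 (Bowtie 1.1.2), cleaned of duplicates (SAMtools), shifted for Tn5 and called with MACS2 2.1.1.20160309. Pooled peaks seen in each replicate were kept (bedtools 2.27.1), and the deposited file has positions without scores. Both lists are single lists for both replicates, without read counts.

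From these, peaks were assigned to genes of GENCODE M21 with Python 3.11.15 and pandas 2.3.3. A promoter was 2 kb either side of the 5′ end of the gene record, a body was the gene beyond it, and 1 shared bp was an overlap. H3K4me3 values belong to the widest promoter peak, and ranks were taken over 14079 autosomal protein-coding genes with one. Distances are given along transcription. Shares have 95% Wilson intervals. The overlaps were tested on simulated data (400 genes, 0 wrong counts) and checked with bedtools 2.31.1 (0 of 20807 genes differed). No statistical test was made.

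The genes, the lists and the rule for named genes (the 10 genes, meiotic cohesin genes, genes without a promoter peak, extremes of each list, and 3 genes most like Ctcf and Ctcfl) were chosen with earlier results of these data known. Yy1, Smc1a, Esco1 and Esco2 were named outside that rule, after their values were seen.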

Additional observations from a re-analysis of the deposited data

How the results depend on the processing

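No paired analysis was possible because each list stands for both replicates, and for the same reason leaving out a replicate was not possible. Promoter ATAC-seq peaks were found at all 10 genes under the 5 alternatives tried, and promoter H3K4me3 peaks at 9 or 10 under 5, with Ctcfl lost at a −log10 q of at least 5. The number of genes wider than the coding median was 6 and became 6 or 7 under 5 alternatives, while 8 were wider than the median of the whole list, and the number of body H3K4me3 peaks was 4 and became 3 to 5 under 3.

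The share of coding genes with a promoter H3K4me3 peak, 67.7%, became 66.4% with a window of 1 kb, 62.4% when the peak had to contain the start, 70.8% with all transcript starts, 66.3% by the midpoint of the peak and 66.4% with all chromosomes. For ATAC-seq the share, 75.9%, became 72.2%, 63.6%, 79.2%, 75.2% and 74.6% in the same order, and 71.2% with the widest 50% of peaks. With the widest 50% of ATAC-seq peaks, the body peaks of the 10 genes fell from 57 to 19, a change that follows from the removal of narrow peaks. Of 49 width percentiles under alternatives, 24 moved, among them Stag1 from 8.91 to 60.0 with all transcript starts. Ranked over all peaks of the list in place of coding promoters, Ctcfl moved from 2.57 to 26.3, Pds5b from 28.4 to 65.7, Smc3 from 46.9 to 76.2 and Stag1 to 48.0, in a list whose median peak width is 1135 bp. Without read counts, weak peaks such as that of Ctcfl have no stated precision.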
